A study of Mus musculus with 6 samples.

Results

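Heat shock proteins and the J-domain proteins that work with them were measured at the RNA level in mouse islets, the endocrine cell clusters scattered through the pancreas. The genes are those whose symbol starts with Dnaja, Dnajb, Dnajc, Hspa, Hspb, Hsph, Hspd or Hspe followed by a number, together with Hsp90aa1 and Hsp90ab1. Hspa5, Dnajb9, Dnajb11 and Dnajc3, which belong to the stress response of the endoplasmic reticulum, were left out by this definition. It takes 67 of the 23179 gene rows in the deposited tables, each on a single row.

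The KO group is 3 libraries from male C57BL/6J mice of genotype Ffar3-/-, which lack the gene for a receptor of short-chain fatty acids. The WT group is 3 libraries from wildtype male mice of the same strain. Mice of both groups were 10 to 14 weeks old, and every library was made from islets picked out of pooled isolations of 2 pancreata. The sources used here do not state how the Ffar3 allele was made, whether it is absent from every tissue, or when the islets were isolated, so a date or batch that followed genotype cannot be told apart from it. The values are FPKM, a level scaled by transcript length and by library, so that levels of different genes can be set beside each other.

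Heat shock proteins are chaperones: they bind proteins that are unfolded, newly made or clumping, and help them fold, stay soluble or be destroyed. HSP70 proteins work in cycles driven by ATP. J-domain proteins bring clients to HSP70 and trigger its ATPase, nucleotide exchange factors such as the HSP110 and BAG proteins open it again, and HSP90 takes over some clients late in folding. When unfolded proteins accumulate, heat shock factor HSF1 is released and switches on a set of these genes within minutes to hours, with Hspa1a, Hspa1b and Dnajb1 among its best known targets. Hspa8 and Hsp90ab1 are the forms that most cells make all the time. Beta cells carry a heavy folding load because they make large amounts of proinsulin.

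Several facts of the whole data set touch the results. Ffar3 had 0.105 FPKM in KO replicate 3 and was listed at 0 in the other KO libraries, while the WT libraries held 4.69, 5.26 and 6.68 FPKM, so the labels fit the targeted gene. Of 12 beta cell genes, Ins2 was listed at 0 in all 6 libraries, and Ins1 was listed at 0 in KO replicate 1 and in every WT library while it had 43721 and 48334 FPKM in KO replicates 2 and 3, so neither insulin gene can be read here. Of the 11 beta cell genes tested, Mafa, Ucn3, Nkx6-1 and Glp1r were lower in KO, with log2 differences from -1.63 to -0.61, and none was higher. The 7 alpha cell genes summed to 13615, 9308 and 7236 FPKM in KO and to between 19877 and 24085 FPKM in WT, each lay lower in every KO library than in any WT library, and 3 of them were called. Of 5 genes of delta and PP cells, 4 lay lower in that way and 1 was called. The part of these endocrine markers in the results on chaperones was not tested. All 25 acinar genes, which mark the digestive enzyme cells around the islets, were found. Summed, they made up 6.43%, 38.5% and 54.0% of the FPKM total in KO replicates 1, 2 and 3 and between 6.69% and 9.95% in the WT libraries. The 22 immediate early genes of a list that marks recent stimulation or handling summed to between 988 and 1202 FPKM in KO and between 3029 and 3900 FPKM in WT, and 18 of them were lower in KO and 1 higher. Of 12 leukocyte genes 11 were found, and they summed to 98.1, 232 and 31.1 FPKM in KO and to between 28.6 and 33.3 FPKM in WT. Of 8 duct genes, the 6 that reached a mean of 1 FPKM averaged 3.30, 4.52 and 4.57 on the log2 scale in KO. In WT they averaged from 2.93 to 3.14. Krt19 and Sox9, with WT means of 0.964 and 0.384 FPKM, are among these 6 only because of the KO libraries. This average was therefore tilted toward KO by the filter. All 8 summed to 174, 223 and 229 FPKM in KO and to between 162 and 175 FPKM in WT. In bulk RNA of this kind, fewer cells of a type and less RNA per cell cannot be told apart.

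Of the 67 genes, 57 reached 1 FPKM on average across the 6 libraries and entered the test. A gene is called here when limma, fitted to log2(FPKM + 1) over all 11669 genes that passed the same filter, gave an adjusted p under 0.05. On that scale, which understates changes of genes with low values, 16 of the 57 were lower in KO and 9 were higher. Over all tested genes 39.9% were called, 19.6% lower and 20.3% higher, so the 25 called here, or 43.9%, are close to the share over all genes. The median log2 difference of the 57 was -0.049, and that of all tested genes was -0.011. The 3 KO libraries lay wholly below the 3 WT libraries for 20 of the 57 and wholly above them for 14, where 28.5% and 27.8% of all tested genes did so, or 56.3% in either direction. At least 1 log2 unit separated the groups for 4 of the called genes, all lower in KO (Dnajb1, Hspa1b, Dnajb4 and Hspa1a), where 0.746% of all tested genes were called and lower by that much, and 2.03% were called and higher by that much. The counts of calls depended on single libraries. Higher calls here were 4 without WT replicate 1, 4 without WT replicate 3 and 5 without KO replicate 2. Lower calls here were 11 in each of these runs. Over all tested genes, higher calls in the same runs were 1381, 1397 and 1864, and lower calls were 1100, 1110 and 1597. Scaling the libraries to equal sums outside the acinar list gave 13 lower and 4 higher calls here, with 1783 lower and 1198 higher over all genes in place of 2289 and 2368. Those sums include Ins1, listed at 43721 and 48334 FPKM in KO replicates 2 and 3 and at 0 elsewhere. Values were divided by 0.933, 1.03 and 1.16 in KO replicates 1, 2 and 3 and by 0.957 to 0.973 in WT. The part of Ins1 in the calls lost under this scaling, here and below, was not tested. The total of 4657 calls over all genes was 2481 without WT replicate 1 and 2507 without WT replicate 3. An exact two-sided permutation test of a single gene in 3 against 3 libraries cannot go below p = 0.1, the value each of 8 genes tried (Dnajb1, Dnajb4, Hspa1a, Hspa1b, Hspa8, Hspb6, Hspa4l and Hspa9) reached. P-values measure the spread between these libraries.

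**Figure D1:**
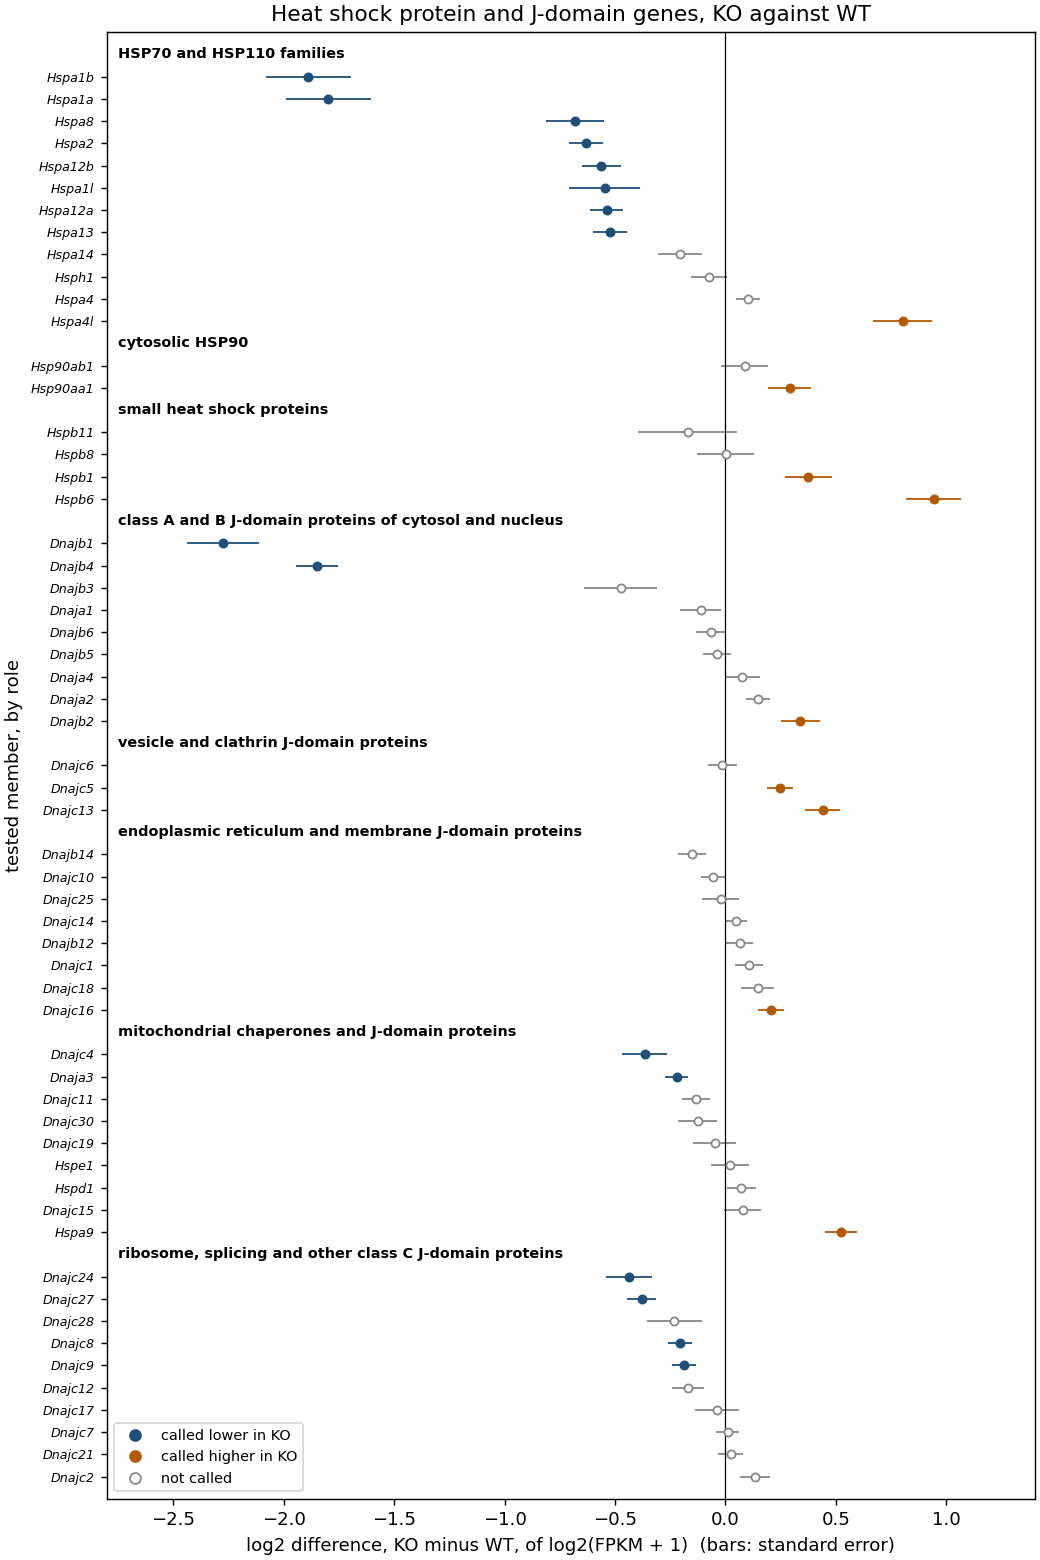
Log2 difference (KO minus WT, on log2(FPKM + 1)) of each of the 57 tested genes, grouped by role, with its standard error as a bar. Filled points are genes called lower (16) or higher (9) in KO and open points are not called. Hspa1b, Hspa1a, Dnajb1 and Dnajb4 stand apart on the left, while most others lie within 0.6 log2 units of 0.

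The stress-inducible HSP70 genes and 2 of their J-domain partners fell the most. Hspa1b, an inducible HSP70, had 187, 121 and 109 FPKM in KO, against 487, 493 and 528 FPKM in WT. Its neighbour and near copy Hspa1a was at 156, 98.4 and 93.9 FPKM in KO, against 376, 379 and 434 FPKM in WT. In both genes KO replicate 1 was the highest of the KO libraries and still lay well under the lowest WT library. The log2 differences were -1.89 for Hspa1b (SE 0.19, adjusted p = 0.00096) and -1.798 for Hspa1a (SE 0.19, adjusted p = 0.0011), which left KO means at 27.6% and 29.3% of the WT means.

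The copies cannot be read as separate measurements. Hspa1a lies at chr17:34969190-34972156 and Hspa1b at chr17:34956436-34959238, both on the minus strand of GRCm38, the assembly that mm10 denotes. Their coding sequences differ at 8 aligned bases and are 99.4% identical. Of the stretches of 50 bases in their transcripts, 60.3% for Hspa1a and 62.3% for Hspa1b also occur in a transcript of another gene, chiefly the other copy. The deposited values split such fragments by estimate. Added together, the copies were at 343, 219 and 203 FPKM in KO, against 863, 871 and 963 FPKM in WT, and the summed row had a log2 difference of -1.85 (adjusted p = 0.0011). The ratio of Hspa1b to Hspa1a was 1.20, 1.23 and 1.16 in KO and 1.29, 1.30 and 1.22 in WT, and the groups overlapped in this division.

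Dnajb1, the class B J-domain protein that drives HSP70 in stressed cells, was at 205, 129 and 163 FPKM in KO, against 801, 744 and 835 FPKM in WT. It had the lowest log2 difference of the 57 tested genes (-2.28, SE 0.16, adjusted p = 0.00038), and the KO mean was 20.9% of the WT mean. By mean level it ranked 10 among the 67 genes in KO and 3 in WT. Dnajb4, a close relative that is also induced by heat, was at 35.4, 29.6 and 32.6 FPKM in KO, against 117, 110.0 and 133 FPKM in WT (log2 difference -1.85, SE 0.09, adjusted p = 0.00022). Its KO libraries were nearly alike, unlike those of Hspa1a and Hspa1b. Dnajb1 lies at chr8:83608193-83612653 on the plus strand and Dnajb4 at chr3:152178511-152210302 on the minus strand. Their coding sequences are 62.8% identical, 0.407% of the stretches of 50 bases of the Dnajb1 transcript occur in another gene and none of those of Dnajb4 do.

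Hspa8, the constitutive HSP70 and the most abundant of the 67 transcripts in both groups, also fell. It was at 1104, 968 and 1127 FPKM in KO, against 1751, 1699 and 1674 FPKM in WT (log2 difference -0.68, SE 0.13, adjusted p = 0.0080). All KO libraries were below all WT libraries, and the KO mean was 62.4% of the WT mean. Under quantile normalization the log2 difference of Hspa8 was -1.21 (adjusted p = 0.013). Of the stretches of 50 bases in the Hspa8 transcript, 73.2% also occur in one or more of 11 other annotated genes, so its level is an estimate. The ratio of Hspa1a plus Hspa1b to Hspa8, which compares inducible with constitutive HSP70 inside a library, was 0.311, 0.227 and 0.180 in KO, against 0.493, 0.513 and 0.575 in WT.

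These 5 genes, picked after their values were seen, summed to 1687, 1346 and 1526 FPKM in KO, against 3532, 3425 and 3605 FPKM in WT. The other members together summed to 4193, 3906 and 4005 FPKM in KO, against 3734, 3891 and 3686 FPKM in WT. All members together summed to 5880, 5252 and 5531 FPKM in KO and 7266, 7316 and 7291 FPKM in WT. This split follows in part from the choice of genes, and the other members include called falls as well as rises. The log2 differences of Dnajb1, Dnajb4, Hspa1a, Hspa1b and Hspa8 passed the threshold in every alternative run, with each single library left out, and in KO replicate 1 alone against WT. That last comparison uses a single KO library, whose spread is assumed to equal that of WT and whose acinar share was below that of every WT library. There the log2 differences were -1.95 for Dnajb1, -1.73 for Dnajb4, -1.42 for Hspa1b, -1.33 for Hspa1a and -0.63 for Hspa8. It called 11 of the 57 genes lower and 7 higher, all of them among those called with all libraries, where 10.9% and 15.2% of all tested genes were called. Immediate early genes were low in the same libraries, in KO replicate 1 too, where they summed to 1202 FPKM. Their part in these falls was not tested.

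**Figure D2:**
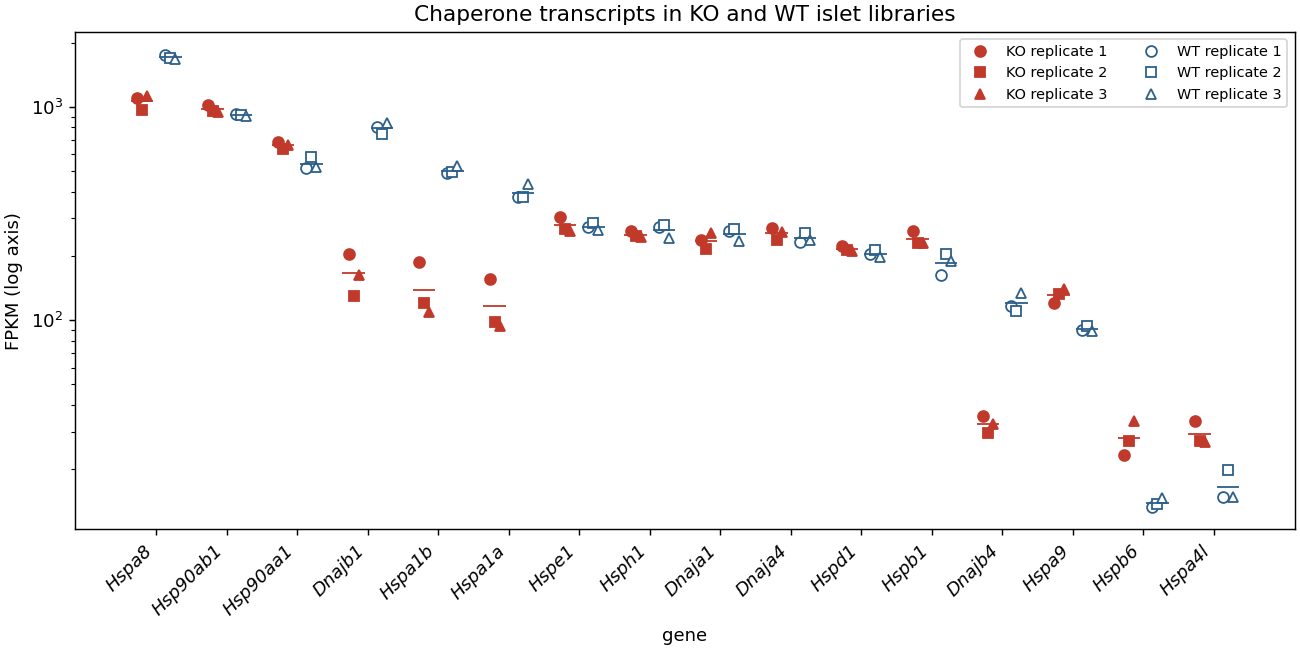
FPKM (log axis) of 16 chaperone genes in each library. Filled red points are KO replicates 1 to 3 and open blue points are WT replicates 1 to 3, with a line at each group's mean. Dnajb1, Hspa1b, Hspa1a and Dnajb4 drop far below WT in all KO libraries, while Hsp90ab1, Hspe1, Hsph1, Dnaja1, Dnaja4 and Hspd1, none of them called, lie close together in both groups.

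Other HSP70 genes at lower levels fell as well. In all, 8 of the 12 tested genes of the HSP70 and HSP110 families were lower in KO and 1 was higher, with a median log2 difference of -0.54, where 19.6% and 20.3% of all tested genes were lower and higher. Hspa9, the mitochondrial HSP70, which rose, is counted with the mitochondrial genes and not here. The 8 include Hspa1l, which passed the filter only because of the WT libraries. They also count Hspa1a and Hspa1b separately, although these copies cannot be read as separate measurements. Hspa13, an HSP70 of the endoplasmic reticulum and microsomes, was at 39.1, 33.3 and 36.5 FPKM in KO, against 54.8, 49.0 and 53.9 FPKM in WT (log2 difference -0.52, adjusted p = 0.0034). Hspa2, best known from male germ cells, was at 7.60, 6.94 and 6.53 FPKM in KO, against 12.1, 10.6 and 11.5 FPKM in WT (-0.63, adjusted p = 0.0017). The distant relatives Hspa12a and Hspa12b, the second of which is known from blood vessel cells, showed the same order of groups. Hspa12a was at 4.06, 3.97 and 4.30 FPKM in KO, against 6.12, 6.18 and 6.99 FPKM in WT (-0.54, adjusted p = 0.0025). Hspa12b was at 1.17, 1.01 and 1.07 FPKM in KO, against 2.20, 2.02 and 2.01 FPKM in WT (-0.56, adjusted p = 0.0044, and -0.88 with a pseudocount of 0.1). In each of these 4 genes the groups did not overlap.

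Hspa1l, which lies beside Hspa1a at chr17:34972703-34979285 on the plus strand, was at 0.919, 0.542 and 0.493 FPKM in KO, against 1.02, 1.71 and 1.52 FPKM in WT (log2 difference -0.55, adjusted p = 0.033). Of the stretches of 50 bases in its transcript, 9.57% also occur in other annotated genes, most often Hspa1a. Hspa1l passed the filter only because of the WT libraries, so its place among the genes that fell supports nothing. Its call was lost in several fits. The log2 difference was -1.03 with a pseudocount of 0.1 and -0.32 in KO replicate 1 alone. Hspa1l had an adjusted p of 0.085 without KO replicate 2, 0.075 without KO replicate 3, 0.10 without WT replicate 2 and 0.10 without WT replicate 3. It had 0.21 in KO replicate 1 alone, 0.16 with the acinar level as a covariate and 0.082 with the replicate number as a block.

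None of the 3 HSP110 genes, whose products open HSP70, was called lower. Hsph1, the heat-inducible HSP110 that opens HSP70, was at 262, 247 and 245 FPKM in KO, against 272, 280.2 and 243 FPKM in WT (log2 difference -0.08, SE 0.08, adjusted p = 0.47). Hspa4, a constitutive HSP110, was at 40.8, 41.5 and 38.5 FPKM in KO, against 36.7, 38.5 and 37.2 FPKM in WT (0.10, adjusted p = 0.16). Hspa4l, the third HSP110 and itself known to respond to osmotic and heat stress, rose. It was at 33.9, 27.3 and 27.0 FPKM in KO, against 14.8, 19.8 and 14.8 FPKM in WT (0.80, SE 0.13, adjusted p = 0.0051), with every KO library above every WT library. The ratio of Hspa4l to Hspa4 was 0.830, 0.657 and 0.699 in KO and 0.404, 0.514 and 0.397 in WT. Hspa14, an atypical HSP70 that sits on ribosomes, was at 17.2 ± 1.07 FPKM in KO and 20.1 ± 2.64 FPKM in WT (SD, n = 3 each; -0.21, adjusted p = 0.13) and was called lower without WT replicate 3 (0.049).

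Neither cytosolic HSP90 gene was called lower. Hsp90ab1, the constitutive form, was at 1018, 954 and 942 FPKM in KO, against 921, 918 and 904 FPKM in WT (log2 difference 0.09, SE 0.11, adjusted p = 0.53). Hsp90aa1, the form that heat induces, was at 686, 633 and 659 FPKM in KO, against 516, 579 and 523 FPKM in WT, which is higher in every KO library (0.29, SE 0.10, adjusted p = 0.049). That call lies at the threshold. Hsp90aa1 had an adjusted p of 0.069 and 0.071 without KO replicates 2 and 3 and of 0.18, 0.073 and 0.18 without WT replicates 1, 2 and 3. It had 0.30 under equal sums outside the acinar genes, 0.53 under quantile normalization, 0.086 with no filter, 0.10 with the replicate block and 0.0504 without the rows listed at 0 in a library beside at least 10 FPKM in another. Of the stretches of 50 bases of its transcript, 58.5% occur in other annotated genes. The ratio of Hsp90aa1 to Hsp90ab1 was 0.674, 0.664 and 0.700 in KO and 0.560, 0.631 and 0.579 in WT.

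Small heat shock proteins hold unfolded proteins in a soluble state without using ATP. By their Hspb symbols, 8 of the 67 genes are placed here, and 2 of the 4 tested rose, where 20.3% of all tested genes did. Cryab is not among the 8 and is given below with other heat-induced genes. Hspb6, also called HSP20 and abundant in muscle, was at 23.3, 27.3 and 33.6 FPKM in KO, against 13.4, 13.8 and 14.8 FPKM in WT (log2 difference 0.94, SE 0.12, adjusted p = 0.0023), the highest log2 difference of the 57 tested genes. Its KO values follow the order of the acinar share of those libraries (6.43%, 38.5% and 54.0%). The part of acinar RNA in its rise was not tested. The log2 difference of Hspb6 was 0.73 under an acinar covariate. In KO replicate 1 alone, with an acinar share under all WT ones, the log2 difference of Hspb6 was 0.70 (adjusted p = 0.0034). Hspb6 lies at chr7:30552178-30555443 and its exons overlap those of Proser3 and Lin37 on the other strand. The sources used here do not state whether counting used strand, so reads of these genes may not be separable.

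Hspb1, also called HSP25 in mice and a target of HSF1, was at 261, 229 and 230.3 FPKM in KO, against 162, 205 and 190 FPKM in WT (log2 difference 0.37, adjusted p = 0.029). All KO libraries were above all WT libraries. Hspb1 had an adjusted p of 0.053 without KO replicate 2, 0.10 without WT replicate 1, 0.080 without WT replicate 3, 0.20 under equal non-acinar sums and 0.069 with the replicate block. Of its stretches of 50 bases, 58.9% also occur in the annotated gene Hsp25-ps1. Hspb8, a partner of BAG3 in selective autophagy, was at 24.9, 21.8 and 28.8 FPKM in KO, against 21.3, 26.1 and 28.2 FPKM in WT (0.0014, adjusted p = 0.99). Hspb11, a subunit of intraflagellar transport rather than a chaperone of the usual kind, was at 7.33, 5.69 and 3.33 FPKM in KO and 6.38, 6.32 and 5.38 FPKM in WT (adjusted p = 0.55). The other genes with Hspb symbols were below the filter.

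Among the class A and B J-domain proteins of the cytosol and nucleus, 9 of 12 were tested. Beside Dnajb1 and Dnajb4 the calls held 1 rise and no further fall. Called genes thus made up 33.3% of the 9, and 39.9% of all tested genes. Of the class A genes, whose products pass HSP70 a broad range of clients, none tested in this group was called. Dnaja3 is counted with the mitochondrial genes, where it was called lower. Dnaja1, which is heat-inducible, was at 236, 215 and 256 FPKM in KO, against 262, 266 and 236 FPKM in WT (log2 difference -0.11, adjusted p = 0.35). Dnaja4 was at 270.2, 237 and 259 FPKM in KO, against 232, 255 and 238 FPKM in WT (0.08, adjusted p = 0.46), and Dnaja2 was at 36.2 ± 0.891 FPKM in KO and 32.6 ± 1.39 FPKM in WT (SD, n = 3 each; 0.15, adjusted p = 0.069). The ratio of Dnajb1 to Dnaja1 within a library was 0.867, 0.600 and 0.639 in KO, against 3.06, 2.79 and 3.54 in WT. Dnajb6, which keeps glutamine-rich proteins from clumping, was at 72.0, 68.1 and 65.3 FPKM in KO, against 76.4, 69.9 and 69.1 FPKM in WT (-0.07, adjusted p = 0.43). The ratio of Dnajb4 to Dnajb6 was 0.492, 0.435 and 0.4999 in KO, against 1.53, 1.57 and 1.93 in WT.

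Dnajb2, a J-domain protein known from neurons that hands clients to the proteasome, was at 54.0, 49.2 and 46.1 FPKM in KO, against 35.8, 43.5 and 38.3 FPKM in WT (log2 difference 0.34, adjusted p = 0.024). Dnajb2 had an adjusted p of 0.057 without KO replicate 2, 0.090 without WT replicate 1, 0.084 without WT replicate 3 and 0.24 under equal sums outside the acinar genes. Dnajb5, a relative of Dnajb1 and Dnajb4, was at 8.84 ± 0.255 FPKM in KO and 9.12 ± 0.537 FPKM in WT (SD, n = 3 each; -0.04, adjusted p = 0.63). Dnajb3 was at 2.03, 1.27 and 1.35 FPKM in KO, against 2.22, 2.15 and 3.28 FPKM in WT (-0.48, adjusted p = 0.056). It was called lower without KO replicate 1 (0.019), with array weights (0.043) and with a robust variance prior (0.044).

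**Figure D3:**
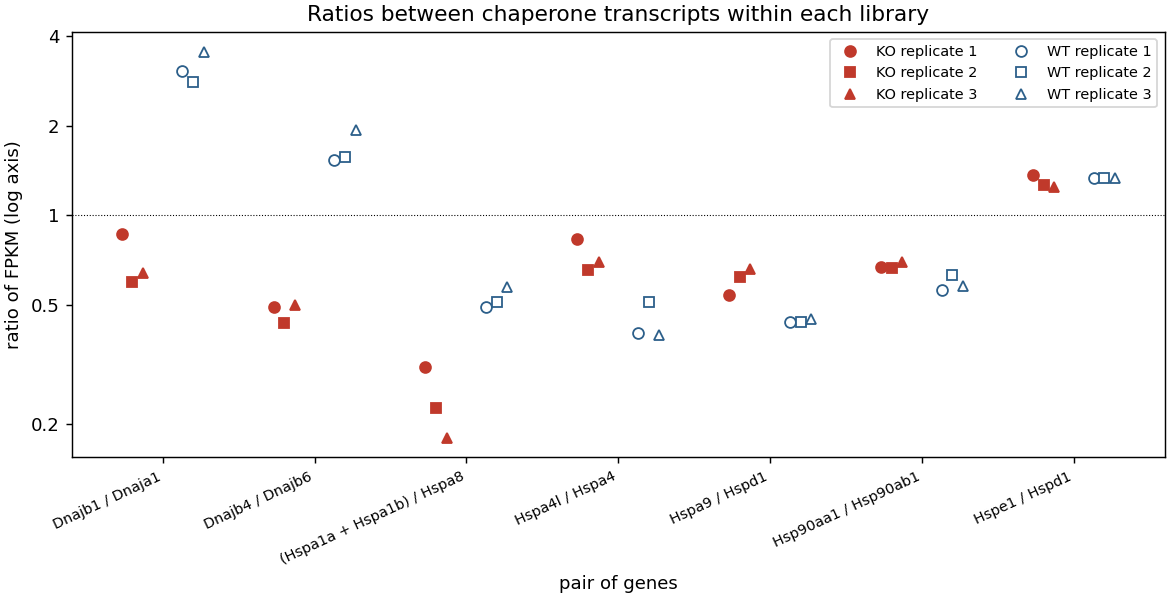
Ratios of FPKM (log axis) between pairs of chaperone genes within each library, with KO as filled red points and WT as open blue points. The ratios of Dnajb1 to Dnaja1, of Dnajb4 to Dnajb6 and of inducible to constitutive HSP70 were lower in every KO library, those of Hspa4l to Hspa4 and of Hspa9 to Hspd1 were higher, and the ratio of Hspe1 to Hspd1 overlapped between groups.

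Promoter sequence was available from RefSeq for 53 of the 67 genes, as windows from 250 bases before to 50 after each start on GRCm38.p6. HSF1 binds heat shock elements, arrays of the unit GAA in alternating direction. An element of 3 units, which is GAA, TTC and GAA with 2 bases of any kind after each of the first and second units, read on either strand, was found for 4 of the 53 genes (7.55%) and for 179 of 27025 genes in the whole table (0.662%). The 4 were Dnajb6, Hsph1, Hspd1 and Hspe1, and none of them was called. An array of 2 units, GAANNTTC or TTCNNGAA, which reads the same on both strands and is also part of each 3-unit element, was found for 16 of the 53 genes (30.2%) and for 4587 in the whole table (17.0%). It was present for 4 of 14 genes called lower (Hspa1a, Hspa1b, Dnajb4 and Dnajc27), 2 of 6 called higher (Hspb1 and Hspb6) and 8 of 26 not called. A match is a description of these letters and not a bound site. The search took only exact copies of these patterns inside the windows, so a gene without a match is not shown to lack an element. No promoter entry was matched for Hspa8, Hspa9, Hspa13, Hsp90aa1, Hsp90ab1, Hspb2, Dnajc2, Dnajc5, Dnajc5b, Dnajc11, Dnajc12, Dnajc18, Dnajc22 and Dnajc30.

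The bases before the start are shown 5′ to 3′ for genes that fell (Hspa1a, Hspa1b, Dnajb1, Dnajb4) and rose (Hspb1), with 2-unit or longer matches in capitals, to set the fallers beside each other. Where a gene had several listed starts, the start with the most matches was chosen, here and below. The other listed start of Dnajb4 had no match. The windows of Hspa1a (chr17:34972157-34972306) and Hspa1b (chr17:34959239-34959388) on the minus strand share 149 of 150 bases, and their match begins 104 bases before the start. The window of Dnajb1 (chr8:83608025-83608174, plus strand) holds no match, that of Dnajb4 (chr3:152193846-152193995, minus strand, the later of 2 listed starts) holds 1 at 14 bases before the start, and that of Hspb1 (chr5:135887769-135887918, plus strand) holds 2.
Hspa1a: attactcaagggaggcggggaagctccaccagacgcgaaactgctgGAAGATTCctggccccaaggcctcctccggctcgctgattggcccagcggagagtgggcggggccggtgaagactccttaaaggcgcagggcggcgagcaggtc
Hspa1b: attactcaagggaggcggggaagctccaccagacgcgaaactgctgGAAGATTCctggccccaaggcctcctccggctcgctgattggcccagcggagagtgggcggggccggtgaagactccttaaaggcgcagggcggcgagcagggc
Dnajb1: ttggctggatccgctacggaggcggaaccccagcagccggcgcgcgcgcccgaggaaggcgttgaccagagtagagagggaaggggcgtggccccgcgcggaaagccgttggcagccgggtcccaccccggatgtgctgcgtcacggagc
Dnajb4: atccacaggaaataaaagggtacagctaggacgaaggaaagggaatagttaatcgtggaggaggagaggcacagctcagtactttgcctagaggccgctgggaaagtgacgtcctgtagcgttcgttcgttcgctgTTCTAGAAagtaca
Hspb1: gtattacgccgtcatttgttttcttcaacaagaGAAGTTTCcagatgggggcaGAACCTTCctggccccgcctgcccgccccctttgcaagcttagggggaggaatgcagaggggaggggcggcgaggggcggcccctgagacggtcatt

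For Dnajb6 and Hspe1, which hold longer arrays and were not called, and for Hspb6, which rose, 30 bases around the matches are shown on the plus strand. The longer array of Hsph1 lies after both of its listed starts and is not shown. The array before Hspe1 (chr1:55088053-55088082) also lies before one of the listed starts of Hspd1, which is read the other way, so it counts for both genes. The array of Dnajb6 is at chr5:29735843-29735872 and the match of Hspb6 at chr7:30553170-30553199. That match lies before the later of 2 listed starts of Hspb6, and the other start had none.
Hspe1: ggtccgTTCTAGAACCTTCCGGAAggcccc
Dnajb6: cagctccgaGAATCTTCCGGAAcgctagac
Hspb6: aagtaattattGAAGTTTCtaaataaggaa

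In mitochondria, Hspa9 is the HSP70 that pulls in and folds imported proteins, and Hspd1 with its lid Hspe1 forms the folding chamber. Of 9 tested mitochondrial genes 1 rose and 2 fell, so that 33.3% were called, where 39.9% of all tested genes were. Hspa9 was at 121, 133 and 141 FPKM in KO, against 89.6, 93.8 and 88.8 FPKM in WT (log2 difference 0.52, SE 0.07, adjusted p = 0.0026), with no overlap of the groups. In KO replicate 1 alone the log2 difference of Hspa9 was 0.41 (adjusted p = 0.0081). Hspd1 was at 222, 213 and 212 FPKM in KO, against 205, 213 and 197 FPKM in WT (0.07, SE 0.07, adjusted p = 0.40), and Hspe1 was at 303, 269 and 263 FPKM in KO, against 273, 285 and 263 FPKM in WT (0.02, SE 0.08, adjusted p = 0.85). The ratio of Hspa9 to Hspd1 was 0.542, 0.622 and 0.663 in KO and 0.437, 0.440 and 0.450 in WT. The ratio of Hspe1 to Hspd1 was 1.36, 1.26 and 1.24 in KO and 1.33, 1.34 and 1.33 in WT. The last pair lie head to head on chromosome 1 and their first exons overlap.

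Dnaja3, the J-domain partner of Hspa9 in the matrix, was at 19.3 ± 0.693 FPKM in KO and 22.7 ± 0.502 FPKM in WT (SD, n = 3 each; log2 difference -0.22, adjusted p = 0.016). Its adjusted p was 0.074 without WT replicate 1, 0.055 without WT replicate 3, 0.087 in KO replicate 1 alone, 0.075 under an acinar covariate and 0.057 under equal sums outside the acinar genes. Dnajc4, a mitochondrial J-domain protein, was at 12.4 ± 1.83 FPKM in KO and 16.2 ± 0.866 FPKM in WT (SD, n = 3 each; -0.37, adjusted p = 0.027). Dnajc4 had an adjusted p of 0.070 and 0.064 without KO replicates 2 and 3 and of 0.076, 0.062 and 0.10 without WT replicates 1, 2 and 3. It had 0.20 in KO replicate 1 alone (log2 difference -0.15), 0.13 under an acinar covariate (-0.22) and 0.055 under equal sums outside the acinar genes. Dnajc15 and Dnajc19, which drive Hspa9 at the inner membrane import channel, had log2 differences of 0.08 and -0.05. Dnajc11 and Dnajc30 had -0.13 and -0.12, and none of the 4 passed (adjusted p from 0.14 to 0.70).

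J-domain proteins of vesicles act on clathrin coats, synaptic vesicles and endosomes. Of 3 tested, 2 rose, where 20.3% of all tested genes did. Dnajc13, which works on early endosomes, was at 9.61, 10.8 and 11.7 FPKM in KO, against 7.35, 8.004 and 7.42 FPKM in WT (log2 difference 0.44, SE 0.08, adjusted p = 0.0066), and its call held in every alternative run. Dnajc5, the cysteine string protein that folds SNARE proteins for exocytosis, was at 36.6, 39.2 and 40.4 FPKM in KO, against 33.1, 31.4 and 32.9 FPKM in WT (0.25, adjusted p = 0.015). Dnajc5 had an adjusted p of 0.052, 0.055 and 0.055 without WT replicates 1, 2 and 3, 0.096 in KO replicate 1 alone, 0.077 under an acinar covariate and 0.22 under equal sums outside the acinar genes. Dnajc6, or auxilin, which strips clathrin coats in neurons, was at 8.88, 9.69 and 10.3 FPKM in KO and 9.72, 9.51 and 9.89 FPKM in WT (-0.014, adjusted p = 0.88).

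Of 8 tested J-domain proteins of the endoplasmic reticulum and other membranes, 1 rose and 0 fell. The share called was 12.5%, where that of all tested genes was 39.9%. Dnajc16 was at 6.63, 6.49 and 6.36 FPKM in KO, against 5.38, 5.40 and 5.69 FPKM in WT (log2 difference 0.21, adjusted p = 0.029). Dnajc16 had an adjusted p of 0.062 without KO replicate 2, of 0.11, 0.089 and 0.074 without WT replicates 1, 2 and 3 and of 0.085 in KO replicate 1 alone. It had 0.066 under an acinar covariate, 0.39 with equal sums, 0.053 with no filter, 0.076 under quantile normalization and 0.076 with the replicate block. Dnajc10, a disulfide reductase of the reticulum, was at 28.8 ± 1.30 FPKM in KO and 29.9 ± 0.928 FPKM in WT (SD, n = 3 each; -0.06, adjusted p = 0.44). Dnajb12, which helps degrade membrane proteins, was at 21.3 ± 0.805 FPKM in KO and 20.4 ± 1.11 FPKM in WT (SD, n = 3 each; 0.06, adjusted p = 0.41). Its relative Dnajb14 (-0.15, adjusted p = 0.093) was called lower only under quantile normalization (0.046). Dnajc1, Dnajc14, Dnajc18 and Dnajc25 had log2 differences from -0.022 to 0.15 and did not pass.

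The remaining class C proteins work on ribosomes, splicing, histones and other tasks, and 4 of 10 tested fell and 0 rose. The 40% called is close to the 39.9% over all tested genes, of which 19.6% fell and 20.3% rose. Dnajc24, needed to make diphthamide on an elongation factor, was at 17.1, 13.1 and 13.0 FPKM in KO, against 20.4, 19.9 and 19.0 FPKM in WT (log2 difference -0.44, adjusted p = 0.017). Dnajc24 had an adjusted p of 0.052 without KO replicate 2, 0.066, 0.053 and 0.051 without WT replicates 1, 2 and 3, and 0.085 in KO replicate 1 alone, where its log2 difference was -0.20; under an acinar covariate that was -0.25. Dnajc27, a small GTPase with a J domain, was at 4.02, 3.87 and 4.11 FPKM in KO, against 5.77, 5.36 and 5.38 FPKM in WT (-0.38, SE 0.07, adjusted p = 0.0056). Its call held in every alternative run that tested it. With a mean of 4.75 FPKM it was left out by the filter of 5 FPKM.

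Dnajc8, found with the splicing machinery, was at 28.1 ± 1.01 FPKM in KO and 32.5 ± 1.13 FPKM in WT (SD, n = 3 each; log2 difference -0.20, adjusted p = 0.024). Dnajc8 had an adjusted p of 0.059 without KO replicate 2, 0.10, 0.067 and 0.057 without WT replicates 1, 2 and 3, and 0.060 with the replicate block. Dnajc9, a histone chaperone, was at 16.3 ± 0.686 FPKM in KO and 18.7 ± 0.575 FPKM in WT (SD, n = 3 each; -0.19, adjusted p = 0.034). Dnajc9 had an adjusted p of 0.080 and 0.081 without KO replicates 2 and 3 and of 0.091, 0.11 and 0.092 without WT replicates 1, 2 and 3. It had 0.22 in KO replicate 1 alone, 0.18 under an acinar covariate, 0.099 under equal non-acinar sums and 0.071 with the replicate block. Dnajc12, high in these islets for a class C gene, was at 38.7, 32.8 and 33.5 FPKM in KO, against 40.0, 39.0 and 39.0 FPKM in WT (-0.17, adjusted p = 0.10), and was called lower without KO replicate 1 (0.0095) and with array weights (0.039). Dnajc2, the ribosome partner of Hspa14, had a log2 difference of 0.13, and Dnajc7, Dnajc17, Dnajc21 and Dnajc28 had differences from -0.23 to 0.025. None of these 5 passed.

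The 10 genes below the filter of 1 FPKM were Hspb2, Hspb3, Hspb7, Hspb9, Dnajb7, Dnajb8, Dnajb13, Dnajc5b, Dnajc5g and Dnajc22. Hspb3, Dnajc5b and Dnajc5g were listed at 0 in all 6 libraries. Dnajc22 was at 0.603, 0.723 and 0.771 FPKM in KO and 0.717, 0.784 and 0.768 FPKM in WT. Hspb2, whose exons overlap those of Cryab on the other strand, was at 0.266, 0.136 and 0 FPKM in KO and 0.945, 0.289 and 0.265 FPKM in WT. The rest stayed at or below 0.410 FPKM in every library.

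Partners of these chaperones outside the HSP and DNAJ names were taken from fixed lists. Among the heat shock factors and their binding proteins, 1 of 5 tested genes was higher and 0 were lower. Over all tested genes 20.3% were higher and 19.6% lower. Hsf1, the main heat-activated factor, was at 13.4, 13.6 and 11.6 FPKM in KO, against 15.3, 14.1 and 16.2 FPKM in WT (log2 difference -0.22, adjusted p = 0.063), and was called lower with array weights (0.045) and under quantile normalization (0.045). Hsf2 was at 11.2, 13.1 and 11.5 FPKM in KO, against 8.997, 10.4 and 9.33 FPKM in WT (0.29, adjusted p = 0.027). Hsf2 had an adjusted p of 0.067 without KO replicate 2, 0.10 without WT replicate 1, 0.096 without WT replicate 3, 0.14 in KO replicate 1 alone, 0.11 under an acinar covariate and 0.21 under equal sums outside the acinar genes.

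Of 12 HSP70 cofactors, 3 fell and 2 rose, and the 41.7% called is close to the 39.9% over all tested genes. Bag3, a heat-induced exchange factor that sends clients to autophagy, was at 38.6, 37.3 and 36.7 FPKM in KO, against 84.8, 74.8 and 99.5 FPKM in WT (-1.17, SE 0.10, adjusted p = 0.00064). Hspbap1, which binds HSPB1, was at 3.21, 3.18 and 4.03 FPKM in KO, against 1.07, 0.998 and 0.924 FPKM in WT (1.16, SE 0.10, adjusted p = 0.00066). Hspbap1 had a WT mean of 0.997 FPKM and passed the filter only because of the KO libraries, so it had to be higher there, and its place among the genes that rose supports nothing. Grpel2, an exchange factor of Hspa9, was at 9.48, 10.8 and 11.8 FPKM in KO, against 6.18, 7.06 and 6.47 FPKM in WT (0.62, SE 0.09, adjusted p = 0.0030). The groups did not overlap for any of these 3 genes, and the calls of Bag3 and Grpel2 held in every alternative run. Named because they complete the count, Bag2 (-0.64, adjusted p = 0.017) and the ubiquitin ligase gene Stub1 (-0.25, adjusted p = 0.030) also fell. Bag2 had an adjusted p of 0.067 and 0.056 without WT replicates 1 and 2, 0.054 in KO replicate 1 alone (log2 difference -0.30) and 0.072 under an acinar covariate. Stub1 had 0.075 and 0.063 without KO replicates 2 and 3, 0.11 and 0.10 without WT replicates 1 and 3, 0.18 in KO replicate 1 alone, 0.14 under an acinar covariate and 0.071 under equal sums outside the acinar genes.

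Of 17 HSP90 cochaperones, 1 fell and 3 rose, so that 23.5% were called, where 39.9% of all tested genes were; the difference between these shares was not tested. Tsc1, which slows the HSP90 cycle, was at 9.13 ± 0.133 FPKM in KO and 7.14 ± 0.287 FPKM in WT (SD, n = 3 each; log2 difference 0.32, adjusted p = 0.0066), and the prolyl isomerase gene Ppid was at 20.6 ± 0.694 FPKM in KO and 16.8 ± 0.577 FPKM in WT (SD, n = 3 each; 0.28, adjusted p = 0.0079). Both lost the call under equal sums outside the acinar genes (0.12 and 0.21). Aarsd1 was at 13.4 ± 1.29 FPKM in KO and 17.7 ± 0.926 FPKM in WT (SD, n = 3 each; -0.37, adjusted p = 0.011, and 0.052 without WT replicate 1). Ahsa2 (0.39, adjusted p = 0.012), named to complete the count, rose but had 0.052 and 0.055 without WT replicates 1 and 3, 0.063 in KO replicate 1 alone and 0.099 with equal sums. Of 13 subunits of the chaperonin TRiC and of prefoldin, 1 fell and 1 rose, or 15.4%. Pfdn4 had a log2 difference of 0.30 (adjusted p = 0.010, 0.0501 without WT replicate 1 and 0.21 with equal sums). Pfdn1 had -0.19 (adjusted p = 0.039), which became 0.096 and 0.070 without KO replicates 2 and 3, 0.14 and 0.14 without WT replicates 1 and 3, 0.18 in KO replicate 1 alone, 0.14 under an acinar covariate, 0.079 with equal sums and 0.053 with the replicate block. Tcp1 of TRiC, the next by p, was at 49.6 ± 1.86 FPKM in KO and 46.2 ± 1.04 FPKM in WT (SD, n = 3 each; adjusted p = 0.17).

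A list of 11 other genes that heat induces held 4 that fell and 1 that rose, with a median log2 difference of -0.10. Its share of called genes was 45.5%, near the 39.9% over all tested genes. The list includes Bag3 and 5 genes that also stand among the HSP90 cochaperones. Zfand2a, a zinc finger protein that helps the proteasome under stress, was at 22.9, 23.2 and 24.1 FPKM in KO, against 32.6, 34.5 and 36.6 FPKM in WT (-0.54, SE 0.06, adjusted p = 0.0013). The call of Zfand2a held in every alternative run. Ubb (-0.68, adjusted p = 0.022) and, to complete the count, Serpinh1 (-0.39, adjusted p = 0.047) also fell and Cryab, a small heat shock protein by structure, rose (1.33, adjusted p = 0.033). Without WT replicates 1, 2 and 3, Ubb had an adjusted p of 0.094, 0.066 and 0.10 and Cryab had 0.081, 0.098 and 0.090. Without KO replicate 2, Ubb had 0.067, Cryab 0.092 and Serpinh1 0.051. Serpinh1 had 0.065 and 0.11 without KO replicates 1 and 3 and 0.13 and 0.12 without WT replicates 2 and 3, and Cryab had 0.052 without KO replicate 3. In KO replicate 1 alone Cryab had 0.083 and Serpinh1 0.13. With no filter on low values Ubb had 0.11, Cryab 0.062 and Serpinh1 0.078. Ubb had 0.052 with the replicate block, Cryab had 0.079 with a robust variance prior, and Serpinh1 had 0.086 with array weights, 0.18 under an acinar covariate and 0.063 with equal sums. The log2 difference of Ubb was -1.61 under quantile normalization. Hmox1, which removes heme, was at 20.5, 30.9 and 18.7 FPKM in KO and 15.6, 16.7 and 15.7 FPKM in WT (0.49, adjusted p = 0.055). It was called higher without KO replicates 1, 2 and 3 (0.045, 0.029 and 0.027), in KO replicate 1 alone (0.022), with array weights (0.017), with the replicate block (0.043) and with a filter of 5 FPKM (0.048). Cryab was at 2.97, 7.31 and 12.02 FPKM in KO and 2.32, 1.65 and 2.09 FPKM in WT, with the KO values again in the order of the acinar share. The part of acinar RNA in its rise was not tested. The log2 difference of Cryab was 0.54 under an acinar covariate (adjusted p = 0.022) and 0.40 in KO replicate 1 alone, in place of 1.33. Stip1, Ahsa1, Cacybp, Chordc1 and Fkbp4, which HSF1 also induces, had log2 differences from -0.21 to 0.15, and none passed with all libraries. Without KO replicate 1 Fkbp4 (0.025) and Ahsa1 (0.049) were called lower, and Fkbp4 also with array weights (0.048).

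**Figure D4:**
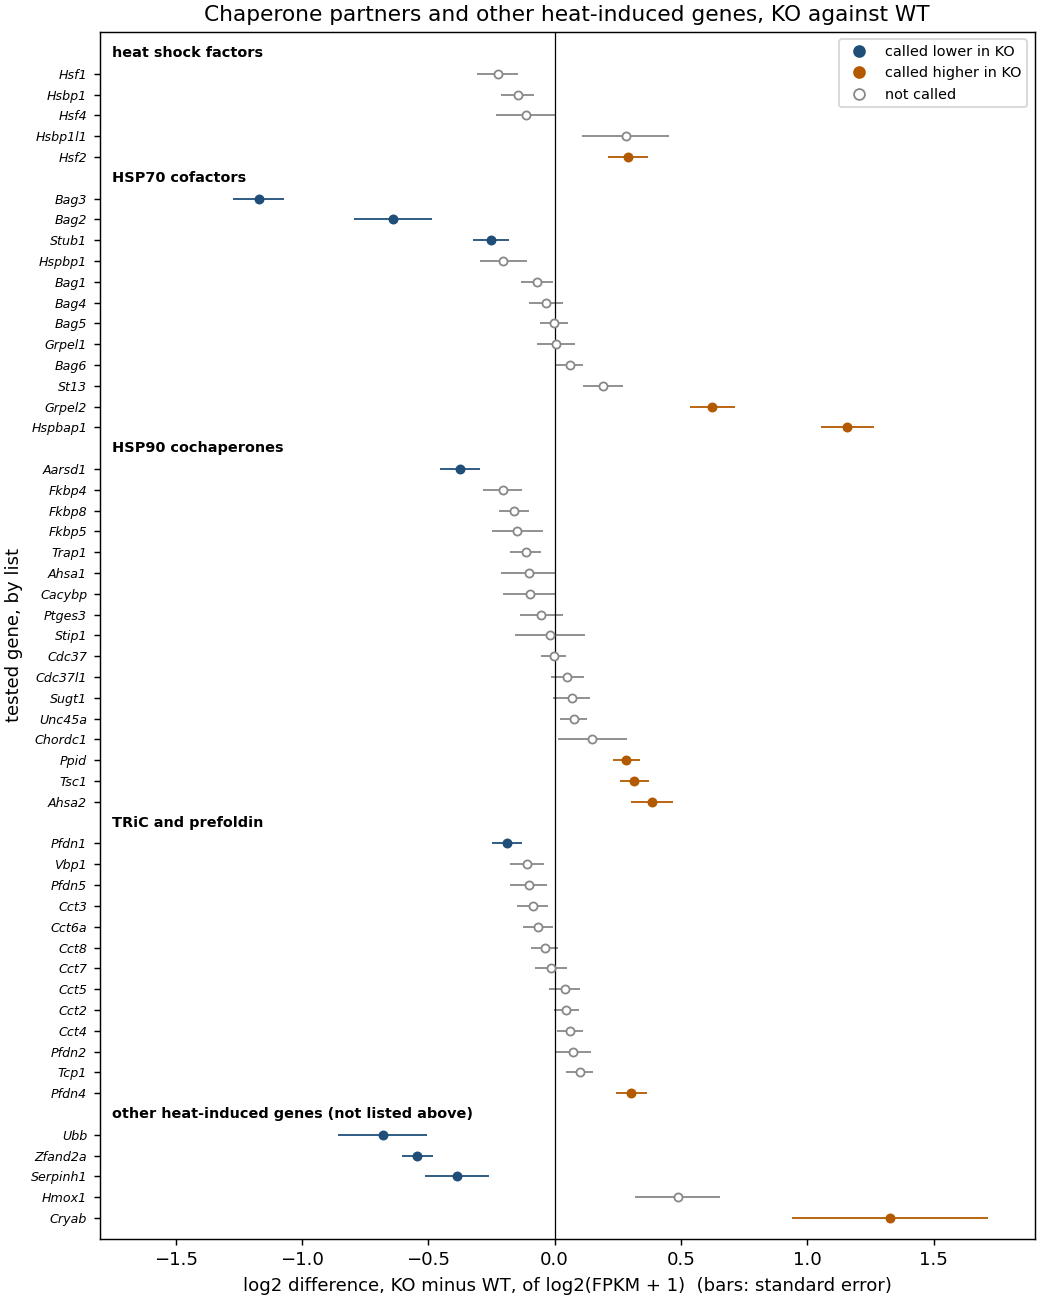
Log2 difference (KO minus WT, on log2(FPKM + 1)) with its standard error for tested partners of the chaperones and other heat-induced genes, each drawn once. Filled points were called and open points were not. Bag3 at -1.17 lies farthest to the left, while the HSP90 cochaperones and the subunits of TRiC and prefoldin lie within 0.4 log2 units of 0.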

How the data were processed

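RNA sequencing of islet total RNA was compared between 3 KO and 3 WT libraries, grouped by sample title. TopHat2 2.0.8b, Cuffdiff 2.1.1 and build mm10 are named in the submitters' processing notes; the sources used here name neither annotation nor strand setting. The deposited values carry no unit and were read as FPKM, Cuffdiff's usual output, made by the authors. Values were tested as deposited with limma 3.58.1 (R 4.3.3) on log2(FPKM + 1): group as the only term, trended prior, two-sided, Benjamini-Hochberg over all genes averaging 1 FPKM or more, threshold 0.05. The method was tested on simulated data in which all 6 libraries had the spread of the WT libraries. In the real data the KO libraries varied more, with array weights of 0.408, 0.769 and 0.572 against 2.05, 1.13 and 2.41 in WT. The simulation therefore cannot give the error rate of the calls made here. Members and gene lists were chosen with earlier results of these data known, so no list is independent evidence. Every member may be named; of other lists, up to 3 genes of smallest p, with exceptions stated. A gene of the list of other heat-induced genes is not reported here and was left out of that list's counts.

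Total depth is unknown. Steps among values under 0.06 FPKM put the fragments per FPKM of KO replicates 1, 2 and 3 at 119%, 89.6% and 59.6% of WT replicate 1, and of WT replicates 2 and 3 at 108% and 115%, so a given FPKM rests on the fewest fragments in KO replicate 3. Shared stretches of 50 bases and positions came from GENCODE M21, promoters from RefSeq. Replicate numbers were not taken to pair the libraries. Deviations of same-numbered libraries from their group means correlated at -0.21, -0.089 and 0.028. With 3 libraries in each group, these values cannot decide whether same-numbered libraries were handled together. Alternatives covered pseudocount, filter, scaling, variance model, the replicate block, an acinar covariate and each library left out. Python 3.11.15 and pandas 2.3.3 were also used.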

Additional observations from a re-analysis of the deposited data

How the results depend on the processing

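Of the 25 called genes, 14 kept their call in all alternatives that tested them and 11 lost it in at least 1, and none changed direction. Dnajc27 and Hspa12b, both among the 14, were not tested with the filter of 5 FPKM. With single libraries left out, calls over all genes ranged from 2481 to 5727, lower members from 11 to 18, higher members from 4 to 9 and the member median from -0.082 to -0.032. Calls over all genes were 3041 in KO replicate 1 alone, 2837 with the acinar covariate and 2981 with equal sums outside the acinar list, which also left 4 higher members. The member median was -0.018 in KO replicate 1 alone, -0.15 with equal sums and -0.076 under quantile normalization. The replicate block gave 13 lower and 6 higher members and 3865 calls over all genes. It ended the calls of Dnajc8, Dnajc9, Dnajc16, Hspa1l, Hspb1 and Hsp90aa1. Nothing but the shared number is known to link the blocked libraries. The share of member promoters with a heat shock element was 30.2% with 2 units in place of 7.55% with 3. The causes of these shifts were not tested. How depth limits genes at different levels was not tested.

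Sign changes were limited to 17 uncalled genes near 0. With equal sums the log2 differences were -0.080 for Hspe1, -0.028 for Hspd1, -0.032 for Dnajb12, -0.048 for Dnajc14, -0.089 for Dnajc7, -0.019 for Dnajc15, -0.072 for Dnajc21, -0.015 for Hsp90ab1, -0.096 for Hspb8 and -0.024 for Dnaja4. In KO replicate 1 alone they were -0.040 for Dnajc7, 0.13 for Dnajc17, 0.0028 for Dnajb5, 0.099 for Dnajc25, 0.25 for Hspb11, 0.0053 for Dnajb6 and -0.0036 for Hspb8. With the acinar covariate they were -0.032 for Dnajc7, 0.11 for Dnajc17, 0.078 for Dnajc25, 0.22 for Hspb11 and -0.036 for Hspb8. Under quantile normalization they were -0.017 for Dnajc7, -0.0092 for Dnajc21, -0.19 for Hsp90ab1 and -0.025 for Hspb8, and with array weights -0.020 for Hspb8. With single libraries left out, they ranged from -0.042 to 0.060 for Hspe1, -0.010 to 0.034 for Dnajc7, -0.0016 to 0.14 for Dnajc15, -0.012 to 0.052 for Dnajc21, -0.12 to 0.060 for Dnajc17, -0.13 to 0.013 for Dnajc19, -0.067 to 0.0039 for Dnajb5, -0.082 to 0.039 for Dnajc25, -0.059 to 0.037 for Dnajc6, -0.38 to 0.091 for Hspb11 and -0.11 to 0.097 for Hspb8.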
